A study of Mus musculus with 8 samples.

Results

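Chemokines are small secreted or membrane-tethered proteins that direct the movement of leukocytes and stem cells. The 10 described here are Cxcl1, Cxcl2, Cxcl5, Cxcl12, Cxcl14, Cxcl15, Cxcl16, Cx3cl1, Ccl20 and Ccl2, out of 18194 genes on the array, and they were found by their symbol in the platform's annotation. Together they have 20 probe sets, groups of short oligonucleotides that match a transcript or, for some, several. For each gene the brightest probe set, by its mean over all 8 arrays, leads, and the others check it. Of the 10 genes, 9 passed a filter on low values and were tested among 14598 genes. Ccl20 did not pass.

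RNA was measured in mammary epithelial cells of C/EBPb knockout (KO) and wildtype (WT) mice, to find pathways that the transcription factor C/EBPb controls in stem and progenitor cells. The KO mice carry a germline C/EBPb-/- genotype, so the gene is lost in every cell type and the gland forms without it. Glands of 10 mice per group were used in 2 paired sets, and cells without the lineage label LIN were sorted by flow cytometry on CD24 and CD29. CD24+CD29hi cells (CD29hi below) are usually described as basal and stem-cell enriched, and CD24hiCD29lo cells (CD29lo below) as luminal. The 4 groups are KO CD29hi, WT CD29hi, KO CD29lo and WT CD29lo, with 2 arrays labelled as biological replicates in each. The sources used here do not give age, strain or the antibodies behind LIN. Nor is it stated which replicate numbers belong to the same set of glands, so p-values measure the spread between these samples.

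Chemokines act through receptors coupled to G proteins on the cells they attract. Cxcl1, Cxcl2, Cxcl5 and Cxcl15 belong to the group that attracts neutrophils, mostly through Cxcr2, and in many epithelia the transcription factor NF-kB induces such genes during infection and tissue injury. Cxcl12 and Cxcl14 are called homeostatic because tissues make them without inflammation. Cxcl16 and Cx3cl1 are made as membrane proteins that proteases such as Adam10 and Adam17 release. Ccl2 attracts monocytes through Ccr2, and Ccl20 attracts Ccr6-bearing lymphocytes and dendritic cells. In the mammary gland, chemokines from epithelium and stroma recruit the leukocytes that take part in duct growth, lactation and mastitis.

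Promoters from RefSeq (build GRCm38.p6), running from 250 bases before the gene's start to 50 bases from it, were matched for 7 of the 10 genes. A pair of sequence patterns was searched on both strands of each: GGANTTTCC for NF-kB and TTGCNNAA for C/EBP factors. GGANTTTCC was present in 412 of 32851 promoters (1.25%), and among the 7 chemokine promoters it was present in Cxcl1 and Cxcl2. TTGCNNAA was present in 10.8% of all promoters and in 0 of the 7. Cxcl5, Cxcl16 and Ccl2 had no matched promoter and were not searched. The Cxcl1 promoter lies at chr5:90890995-90891294 and the Cxcl2 promoter at chr5:90903649-90903948, both on the plus strand. They are shown because both genes are neutrophil attractants whose promoters hold the NF-kB letters. The capitals mark the 9-base match GGAATTTCC, which begins 70 bases before the start of Cxcl1 and 96 bases before that of Cxcl2.
Cxcl1 promoter: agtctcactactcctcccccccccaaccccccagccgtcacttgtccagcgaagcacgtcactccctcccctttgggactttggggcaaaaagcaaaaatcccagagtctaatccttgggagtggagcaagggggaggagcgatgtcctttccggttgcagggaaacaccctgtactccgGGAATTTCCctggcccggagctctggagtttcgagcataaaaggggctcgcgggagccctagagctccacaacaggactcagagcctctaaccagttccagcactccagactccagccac
Cxcl2 promoter: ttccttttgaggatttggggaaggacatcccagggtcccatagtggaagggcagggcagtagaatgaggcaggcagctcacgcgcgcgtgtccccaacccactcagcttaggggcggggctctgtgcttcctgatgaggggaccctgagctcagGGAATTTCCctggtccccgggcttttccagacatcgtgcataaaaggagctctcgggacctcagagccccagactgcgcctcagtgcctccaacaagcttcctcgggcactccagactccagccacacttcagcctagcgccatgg
The match sits inside a 14-base run, gggaatttccctgg, that is identical in both promoters. A second identical run of 20 bases, gcactccagactccagccac, begins 30 bases after the start of Cxcl1 and 10 bases after that of Cxcl2. A match describes these letters and is not evidence of a binding site. Cxcl5, Cxcl15, Cxcl1 and Cxcl2 all lie on chromosome 5.

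Values are log2 signals as the authors deposited them, floored at 0. A background was set on each array at the 95th percentile of 27 bacterial control probe sets and lay between 3.84 and 4.41. Signals of different genes come from different probes and are not compared with each other. Cebpb, the deleted gene, averaged 8.99 ± 0.552 in KO CD29hi cells and 12.1 ± 0.212 in WT CD29hi cells (log2, SD, n = 2 each), and 9.06 ± 0.24 in KO CD29lo cells and 12 ± 0.247 in WT CD29lo cells. It was lower in KO in both gates (limma adjusted p = 0.0177 and 0.0271). Its KO signal stayed well above background on both arrays of each gate, and the reason was not tested. By the test defined below and averaged over both genotypes, all 8 basal markers were higher in CD29hi cells and all 7 measured luminal markers lower. Within KO cells all 7 luminal markers were lower by that test, and within WT cells 5 of the 7. By these markers the gates carried the lineages that are usual for them. Averaged over both genotypes, 10 of 12 fibroblast markers were also lower in CD29hi cells. A gene passed the test, or was called, where limma's p adjusted over the 14598 genes was under 0.05, and 22.9% of all genes were called between the gates, averaged over both genotypes. In bulk RNA, fewer cells of a type and less RNA per cell cannot be told apart.

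Between the gates, 4 of the 9 tested chemokines differed when averaged over both genotypes, beside 22.9% of all genes. Cxcl14 was higher in CD29hi cells, while Cxcl15, Cxcl5 and Ccl2 were lower. That is 1 of 9 higher, beside 12.2% of all genes, and 3 of 9 lower, beside 10.8% of all genes. Groups without any overlap were found for 3 of the 9, beside 25.3% of all genes. Within KO cells 2 of 9 were called (14.1% of all genes) and within WT cells 2 of 9 (8.19% of all genes), in both cases Cxcl14 and Cxcl15. Between genotypes 0 of 9 were called in CD29hi cells (0.0137% of all genes), 0 of 9 in CD29lo cells (0.0137%) and 0 of 9 averaged over both gates (0.0685%). The test of whether the genotype difference itself differed between the gates called 0 of 9, and 0% of all genes. At limma's unadjusted p under 0.05, 1 of the 9 differed between genotypes in CD29hi cells, 0 in CD29lo cells and 1 in the average, in each case Cxcl15. Over all genes, 1145, 975 and 1353 had an unadjusted p under 0.05 in those 3 contrasts. The median difference of the 9 between the gates was -0.41 on the log2 scale, against 0.01 for all tested genes. For KO minus WT averaged over both gates it was 0.03, against -0.04 for all tested genes.

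**Figure D1:**
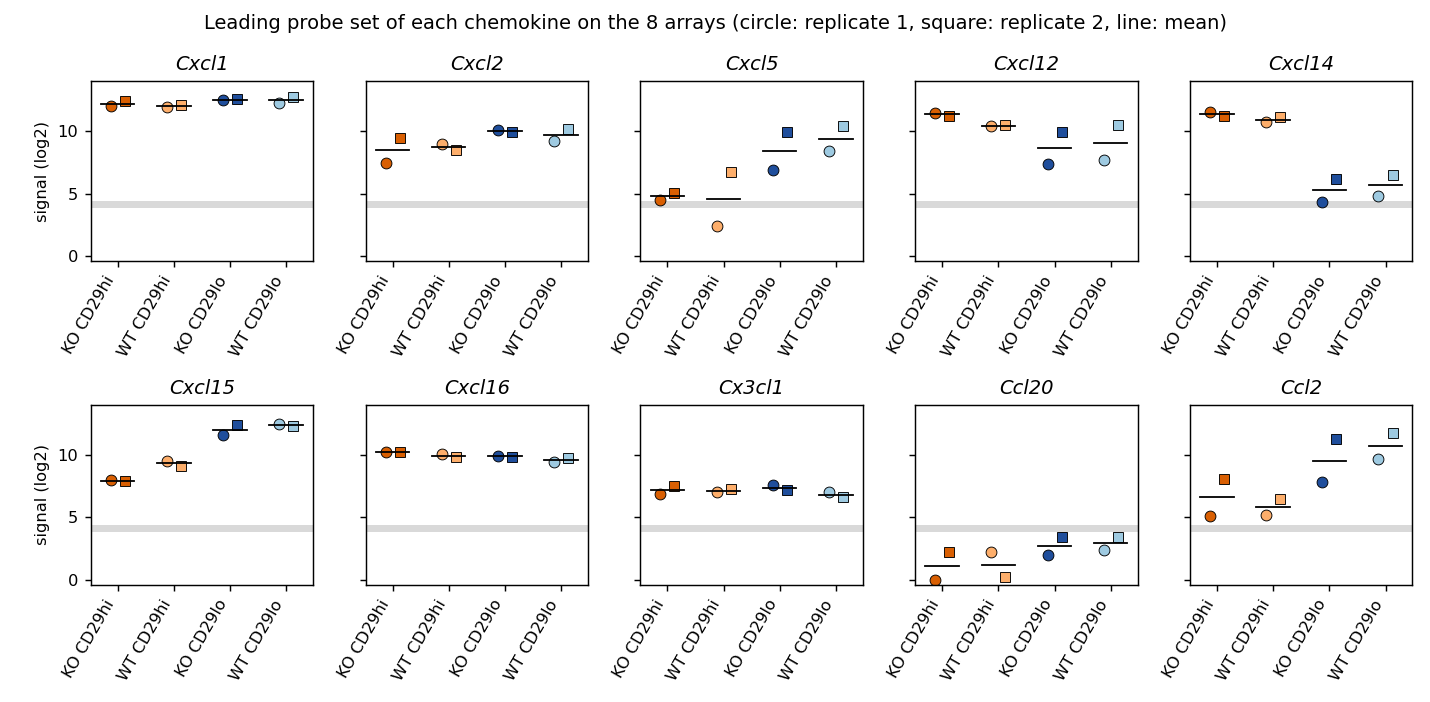
Log2 signal of the leading probe set of each of the 10 chemokines (vertical axes) in KO CD29hi, WT CD29hi, KO CD29lo and WT CD29lo cells, with circles for replicate 1, squares for replicate 2, a black line at the mean of each pair, and a grey band over the arrays' backgrounds (3.84 to 4.41). Cxcl14 is high in both CD29hi groups and lower, at 4.34 to 6.5, in both CD29lo groups. Cxcl15 is lower in the CD29hi groups, at 7.91 to 9.52, but well above the band there. Every Ccl20 value lies below the band.

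All 4 neutrophil attractants had a negative averaged difference CD29hi minus CD29lo, where the median of all tested genes was 0.01. Of them 2, Cxcl15 and Cxcl5, passed the test, beside 10.8% of all genes called lower. The leading probe sets of Cxcl1 and Cxcl2 did not pass, and their gates overlapped. Cxcl15, a mouse chemokine first described in lung epithelium, had log2 signals of 7.96 and 7.91 in KO CD29hi cells and 9.52 and 9.1 in WT CD29hi cells, against 11.54 and 12.41 in KO CD29lo cells and 12.44 and 12.27 in WT CD29lo cells. No CD29hi array reached any CD29lo array. The difference CD29hi minus CD29lo, averaged over both genotypes, was -3.54 ± 0.198 (log2, SE), 11.7-fold lower in CD29hi cells (limma adjusted p = 2.67e-05). It was called in KO (-4.04 ± 0.28) and in WT (-3.05 ± 0.28), and in all 8 fits that left out 1 array. The second Cxcl15 probe set gave -4.43 ± 0.292.

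Cxcl15 was also the chemokine with the smallest p between genotypes, and that difference did not pass. In CD29hi cells both KO arrays lay below both WT arrays, and the difference KO minus WT was -1.37 ± 0.28 (log2, SE), 2.59-fold lower in KO, with a limma adjusted p of 0.284. In CD29lo cells the groups overlapped and the difference was -0.38, with a 95% interval from -1.02 to 0.26. The test of the difference between both contrasts gave -0.99 ± 0.397 with an adjusted p of 0.961. The levels ran, from low to high, KO CD29hi, WT CD29hi and then both CD29lo groups, which overlapped. The second probe set was also lower in KO CD29hi cells, at 5.7 and 6.68, against 7.23 and 7.4 in WT CD29hi cells.

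The part of luminal markers in the Cxcl15 difference was not tested, and their values are given beside it. The summed log2 signal of the 7 luminal markers was 59.5 and 64.5 in KO CD29hi cells and 65.3 and 65 in WT CD29hi cells, against 77.5 to 79 in CD29lo cells. The 2 CD29hi groups differed in this sum through 1 marker. The luminal transcription factor Elf5, picked from that list after its values were seen, had 3.99 and 6.94 in KO CD29hi cells, against 9.14 and 8.17 in WT CD29hi cells. Its difference KO minus WT in CD29hi cells was -3.19 ± 0.858, with an adjusted p of 0.366. Without Elf5, the sum over the other 6 markers was 55.5 and 57.5 in KO CD29hi cells, against 56.2 and 56.8 in WT CD29hi cells, and the groups overlapped. Esr1, at 0.89, and Krt19, at 0.17, had positive differences there, and the median of the 7 markers was -0.15.

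Cxcl5, a neutrophil attractant made by epithelial and stromal cells, had the largest standard error of the 9. It had 4.5 and 5.06 in KO CD29hi cells and 2.42 and 6.71 in WT CD29hi cells, against 6.88 and 9.92 in KO CD29lo cells and 8.4 and 10.37 in WT CD29lo cells. The gates did not overlap, and the value of 2.42 lay below that array's background. CD29hi minus CD29lo was -4.22 ± 1.00 (log2, SE; limma adjusted p = 0.0183), 18.6-fold lower in CD29hi cells. The call was lost without KO CD29hi replicate 1 (adjusted p = 0.0636), without WT CD29lo replicate 2 (0.0576) and with a single prior variance for all genes (0.0508). KO minus WT was 0.21 in CD29hi cells, with an interval from -3.03 to 3.46, and -0.98 in CD29lo cells, with an interval from -4.23 to 2.26.

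Cxcl1 and Cxcl2, whose promoters are printed above, were well above background on every array. Cxcl1 had 12 and 12.4 in KO CD29hi cells and 11.93 and 12.06 in WT CD29hi cells, against 12.5 and 12.54 in KO CD29lo cells and 12.23 and 12.75 in WT CD29lo cells. The averaged gate difference was -0.41 ± 0.128 with an adjusted p of 0.052. Its leading probe set has the suffix _s_at, which marks probes shared by several transcripts. The other Cxcl1 probe sets gave -0.61 ± 0.137 for the one without such a suffix (adjusted p = 0.0149, every probe set tested) and -0.52 ± 0.149 for the third (0.04).

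Cxcl2 had 7.48 and 9.42 in KO CD29hi cells and 8.97 and 8.51 in WT CD29hi cells, against 10.07 and 9.94 in KO CD29lo cells and 9.17 and 10.15 in WT CD29lo cells. One KO CD29hi array stood at 7.48 and the other at 9.42, above the lower WT CD29lo array, so the gates overlapped. The averaged gate difference was -1.24 ± 0.411 with an adjusted p of 0.0634. KO minus WT averaged over both gates was 0.12 for Cxcl1, with an interval from -0.17 to 0.41, and 0.03 for Cxcl2, with an interval from -0.91 to 0.97.

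Of the homeostatic chemokines, Cxcl14, a constitutive chemokine of skin and other epithelia, showed the largest gate difference of the 9 tested genes. It had 11.49 and 11.19 in KO CD29hi cells and 10.71 and 11.11 in WT CD29hi cells, against 4.34 and 6.19 in KO CD29lo cells and 4.83 and 6.5 in WT CD29lo cells. The gates lay far apart in both genotypes, and the KO CD29lo value of 4.34 was below that array's background of 4.41. CD29hi minus CD29lo was 5.66 ± 0.473 (log2, SE; limma adjusted p = 0.000137), 50.6-fold higher in CD29hi cells. It was 6.07 ± 0.669 within KO (67.4-fold) and 5.24 ± 0.669 within WT (37.9-fold), and it was called in all 8 fits that left out 1 array. The second probe set was at or below background on all CD29lo arrays, which makes its signal at least 66.4-fold higher in CD29hi cells. KO minus WT was 0.43 in CD29hi cells, where both KO arrays were above both WT arrays, with an interval from -1.1 to 1.96. In CD29lo cells it was -0.40, with an interval from -1.93 to 1.13.

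Cxcl12, which retains stem cells and leukocytes through Cxcr4, had 11.45 and 11.23 in KO CD29hi cells and 10.39 and 10.46 in WT CD29hi cells, against 7.39 and 9.91 in KO CD29lo cells and 7.67 and 10.45 in WT CD29lo cells. The CD29hi arrays were close to each other, while within each CD29lo group one array was far above the other. Averaged over both genotypes CD29hi minus CD29lo was 2.03 ± 0.663, with an adjusted p of 0.0604 that did not pass. The second probe set gave 3.53 ± 0.654 (adjusted p = 0.00606, every probe set tested), with 10.06 and 9.91 in KO CD29hi cells and 10.01 and 9.47 in WT CD29hi cells, against 4.1 and 7.22 in KO CD29lo cells and 6.05 and 7.97 in WT CD29lo cells. The third, a dim probe set, was at or below background on every CD29lo array and at least 1.74-fold higher in CD29hi cells. With the mean of the probe sets of each gene the Cxcl12 gate difference was 2.52, with an adjusted p of 0.00426.

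In CD29hi cells, both KO arrays of Cxcl12 were above both WT arrays, with a difference of 0.91 ± 0.937 and an adjusted p of 0.902. The third, dim probe set separated the genotypes in the same way, with 5.48 and 5.4 in KO and 4.15 and 4.56 in WT (1.08 ± 0.497, adjusted p = 0.705, every probe set tested). In the second probe set they overlapped. In all, 4 of the 9 chemokines had groups without overlap between genotypes in CD29hi cells, beside 39.5% of all genes, and 2 of 9 in CD29lo cells, beside 34.3%. Those 4 were Cxcl12, Cxcl14, Cxcl15 and Cxcl16, and those 2 were Cxcl16 and Cx3cl1.

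**Figure D2:**
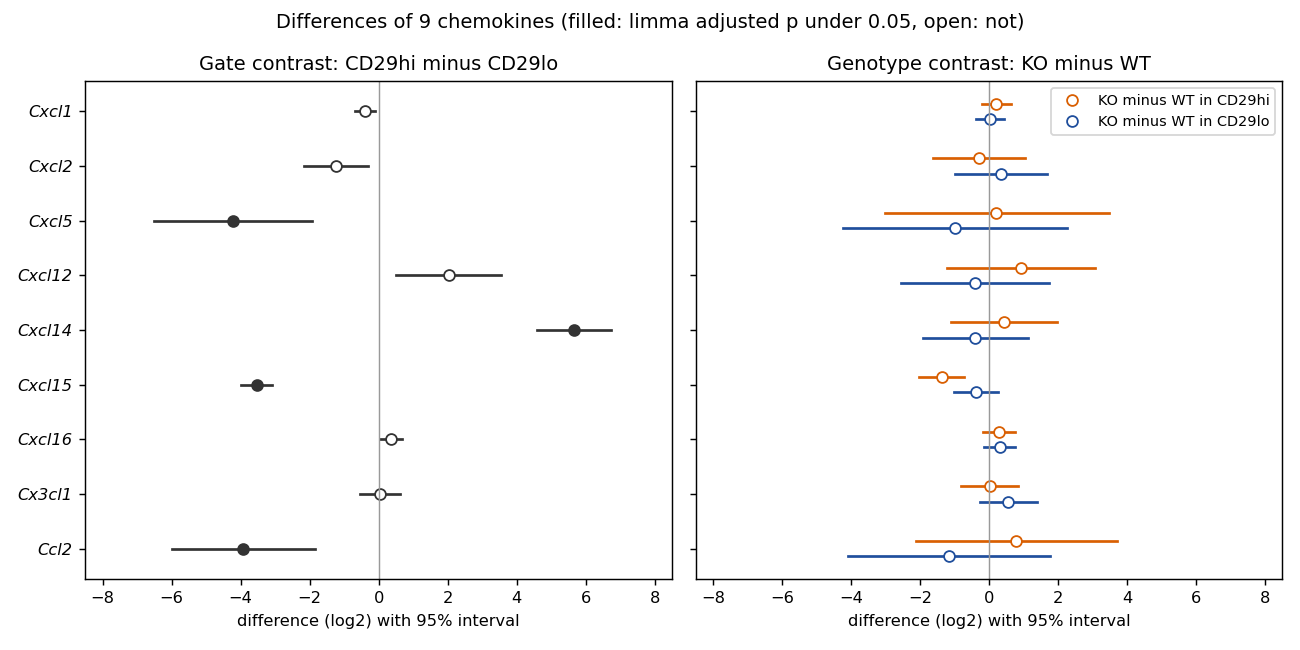
Log2 differences with 95% intervals (horizontal axes) of the 9 tested chemokines, CD29hi minus CD29lo averaged over both genotypes on the left and KO minus WT on the right, with CD29hi in orange and CD29lo in blue and filled circles for a limma adjusted p under 0.05. On the left, Cxcl14 (5.66) is called above 0 and Cxcl5 (-4.22), Cxcl15 (-3.54) and Ccl2 (-3.92) below it, while no genotype difference is called and the widest intervals are those of Cxcl5 and Ccl2.

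Neither of the membrane-tethered chemokines passed the test in any contrast. Cxcl16, the ligand of Cxcr6, had 10.23 and 10.19 in KO CD29hi cells and 10.07 and 9.78 in WT CD29hi cells, against 9.9 and 9.83 in KO CD29lo cells and 9.4 and 9.72 in WT CD29lo cells. Each KO pair lay above the WT pair of its gate by a small margin. KO minus WT averaged over both gates was 0.30 ± 0.14, with an interval from -0.03 to 0.62 and an adjusted p of 0.576. The second Cxcl16 probe set gave 0.47 ± 0.139 (adjusted p = 0.406, every probe set tested). The gate difference was 0.36 ± 0.14, with an adjusted p of 0.108.

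Cx3cl1, or fractalkine, the ligand of Cx3cr1, had 6.82 and 7.46 in KO CD29hi cells and 7.05 and 7.22 in WT CD29hi cells, against 7.55 and 7.18 in KO CD29lo cells and 7 and 6.61 in WT CD29lo cells. These values overlapped, and the gate difference was 0.05 with an interval from -0.53 to 0.63. Its other probe sets disagreed with the leading one and with each other. One gave 1.48 ± 0.3 (adjusted p = 0.00924) and another -1.40 ± 0.287 (0.0099), both with every probe set tested. A gate direction for Cx3cl1 therefore cannot be given from these arrays. In CD29lo cells both KO values of the leading probe set lay above both WT values, with a difference of 0.56, an interval from -0.26 to 1.38 and an adjusted p of 0.813.

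**Figure D3:**
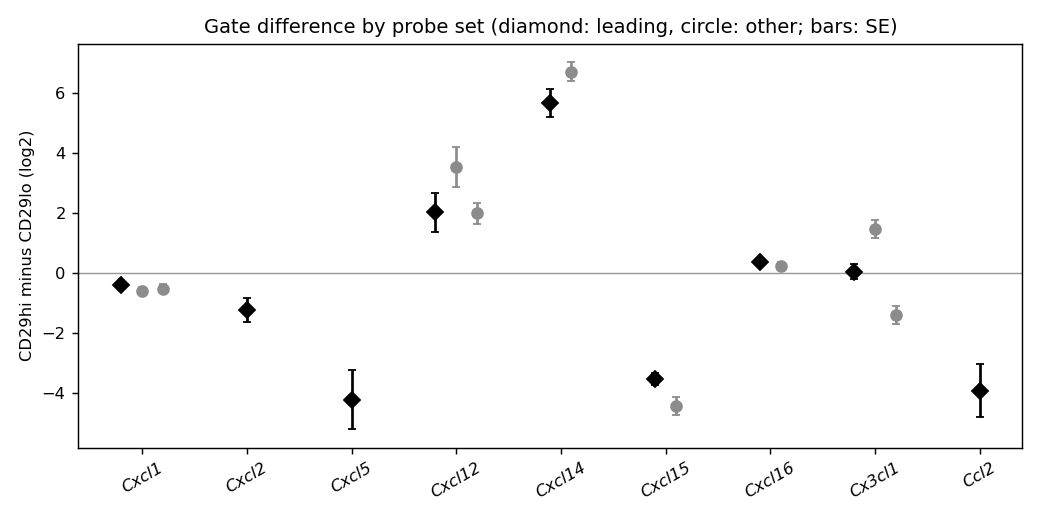
Log2 difference CD29hi minus CD29lo, averaged over both genotypes (vertical axis, bars show the SE), for each tested probe set of the 9 chemokines, with black diamonds for leading and grey circles for other probe sets. The probe sets of Cxcl12, Cxcl14 and Cxcl15 lie on the same side of 0, while those of Cx3cl1 lie at 0.05, 1.48 and -1.40.

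Ccl2, the monocyte attractant also called MCP-1, had 5.11 and 8.05 in KO CD29hi cells and 5.16 and 6.42 in WT CD29hi cells, against 7.83 and 11.22 in KO CD29lo cells and 9.65 and 11.71 in WT CD29lo cells. The gates overlapped, because KO CD29hi replicate 2 was above KO CD29lo replicate 1, and in all 4 groups the array numbered 2 was higher than the array numbered 1, by 1.26 to 3.39. CD29hi minus CD29lo was -3.92 ± 0.902 (log2, SE; limma adjusted p = 0.0161), 15.1-fold lower in CD29hi cells. The call was lost without KO CD29hi replicate 1 (adjusted p = 0.0548), without WT CD29hi replicate 1 (0.0636) and without WT CD29lo replicate 2 (0.0512). KO minus WT was 0.79 in CD29hi cells, with an interval from -2.13 to 3.71, and -1.15 in CD29lo cells, with an interval from -4.08 to 1.77. These intervals span changes of several fold in either direction.

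Ccl20 was at or below background on all 8 arrays, with 0 and 2.22 in KO CD29hi cells and 2.22 and 0.19 in WT CD29hi cells, against 1.98 and 3.41 in KO CD29lo cells and 2.4 and 3.41 in WT CD29lo cells. It was not measurable with this probe set in any of the 4 groups, and no fold is given.

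The fibroblast markers moved with Ccl2 and Cxcl5. The mean log2 signal of the 12 markers, which include collagens and Pdgfra, was 5.24 and 6.85 in KO CD29hi cells and 5.16 and 6.58 in WT CD29hi cells, against 7.45 and 10.59 in KO CD29lo cells and 9.41 and 11.22 in WT CD29lo cells. The array numbered 2 was the higher one in every group, as for Ccl2 and Cxcl5 and, by smaller margins of 0.04 to 0.52, for Cxcl1. All 12 markers were above background on every CD29lo array, and 9 to 12 of them on the CD29hi arrays, and none was listed at 0. Their summed log2 signal ran from 62.9 to 82.2 in KO CD29hi cells, from 61.9 to 79 in WT CD29hi cells, from 89.4 to 127 in KO CD29lo cells and from 113 to 134.6 in WT CD29lo cells. With the marker mean as a covariate, an alternative chosen after seeing the data, the gate difference of Ccl2 was 0.46 (adjusted p = 0.696). That of Cxcl5 was -0.01 (0.999). Because the marker mean differs between the gates, this fit cannot separate gate from marker level for either gene. Without both CD29lo arrays numbered 2, also chosen after seeing the data, the gate difference was -2.56 for Ccl2 and -2.97 for Cxcl5. Those arrays hold the higher value of each gene in each CD29lo group, so leaving them out had to narrow the difference. The part of fibroblasts in the Ccl2 and Cxcl5 values was not tested.

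Cxcl12 in CD29lo cells was also higher on the arrays with more fibroblast signal, and on the CD29hi arrays, where the marker mean was 6.85 or lower, it was at 10.39 or higher. Its gate difference was 4.68 with the covariate (adjusted p = 0.0173). The marker mean itself differs between the gates, so that fit cannot separate gate from marker level. Without both CD29lo arrays numbered 2 it was 3.35, but those arrays hold the higher Cxcl12 value of each CD29lo group, so leaving them out had to widen the difference. Cxcl14 in CD29lo cells was likewise higher on the array numbered 2, by 1.85 in KO and 1.67 in WT. The part of fibroblasts in the Cxcl12 and Cxcl14 values was not tested.

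**Figure D4:**
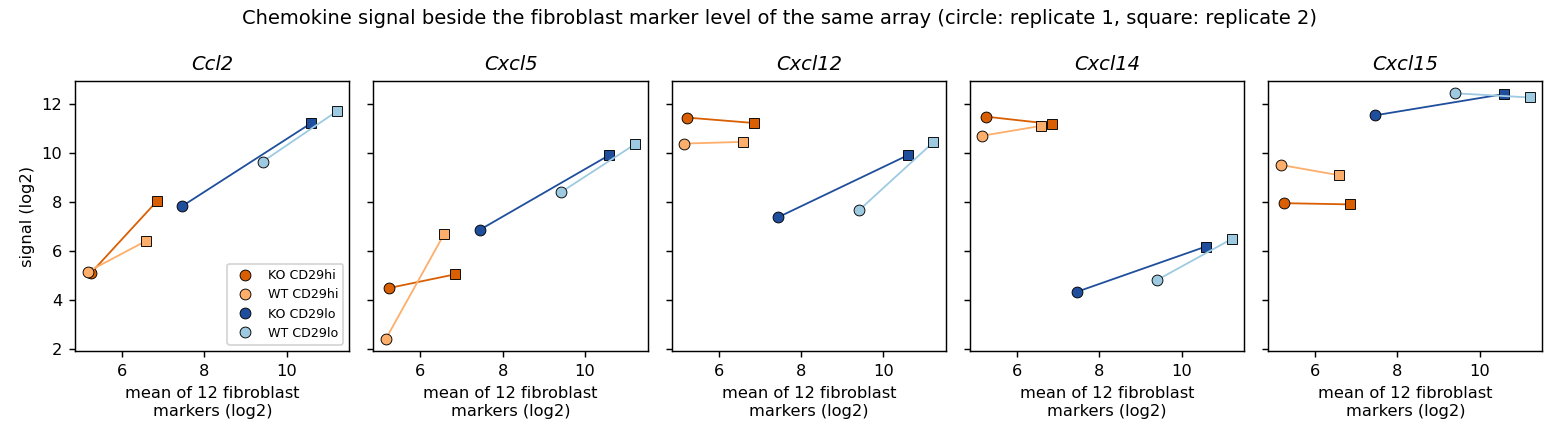
Log2 signal of 5 chemokines (vertical axes) against the mean log2 signal of 12 fibroblast markers on the same array (horizontal axes), with circles for replicate 1, squares for replicate 2 and a line joining each pair. Within each of the 4 groups Ccl2 and Cxcl5 are higher on the array with the higher marker mean. Cxcl12 and Cxcl14 are so in both CD29lo groups. Cxcl5, Cxcl14 and Cxcl15 separate by gate without overlap.

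The genes whose pattern was most like each called chemokine were found by the root mean square difference over the 8 arrays, after taking off each gene's own mean. For Ccl2 these were Col1a2 (0.301), a chain of type I collagen, Lpl (0.387), lipoprotein lipase, and Itgbl1 (0.406). Col1a2 had 6.05 and 8.41 in KO CD29hi cells and 6.09 and 7.32 in WT CD29hi cells, against 8.95 and 12.31 in KO CD29lo cells and 11.17 and 12.6 in WT CD29lo cells. Both type I collagen genes named here belong to the fibroblast marker list. For Cxcl5 the closest were Col1a1 (0.685), Clca1 (0.795) and Mmp19 (0.872), a matrix metalloproteinase. Cxcl14 was closest to Rnf150 (0.455), Spock2 (0.481) and Ripor2 (0.578), and Cxcl15 to Faah (0.339), Wfdc2 (0.406) and Nectin4 (0.431). Faah hydrolyses fatty acid amides, and Wfdc2 is a secreted protein of many epithelia. Wfdc2 had 7.93 and 8.44 in KO CD29hi cells and 9.19 and 9.11 in WT CD29hi cells, against 11.21 and 11.7 in KO CD29lo cells and 11.7 and 11.65 in WT CD29lo cells.

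Among 28 other chemokine ligands, 25 had a probe set and 17 were tested. Between the gates 0 were higher and 5 lower in CD29hi cells (Cxcl3, Cxcl10, Cxcl17, Ccl5 and Ccl9), beside 12.2% of all genes higher and 10.8% lower. Their median was -0.26, against 0.01 for all tested genes. Cxcl3, a neutrophil attractant close to Cxcl1 and Cxcl2, had 5.79 and 6.5 in KO CD29hi cells and 5.65 and 5.99 in WT CD29hi cells, against 7.24 and 9.38 in KO CD29lo cells and 7.79 and 9.11 in WT CD29lo cells. Its difference was -2.40 ± 0.501 (adjusted p = 0.0108). Cxcl10, which attracts T cells through Cxcr3, was at -2.81 ± 0.559 (0.00868). Ccl5, another T cell attractant, and Cxcl17 were at or below background in 1 CD29hi group each, and Ccl5 was at least 11.2-fold lower in CD29hi cells (adjusted p = 0.000357). Cxcl17 was at least 4.96-fold lower (0.00107). Ccl9 was at -1.85 ± 0.345 (0.00637). Between genotypes 0 of the 17 were called in either gate, beside 0.0137% of all genes in each gate.

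Leukocytes are a known source of several of these ligands, and the cells were sorted as lacking LIN, a label that usually covers leukocyte antigens. Of 14 leukocyte markers 13 had a probe set and 8 were tested, and Cd68 was higher and S100a8 lower in CD29hi cells (22.9% of all genes called in either direction). Their summed log2 signal was 50.6 and 61.4 in KO CD29hi cells and 55.8 and 54 in WT CD29hi cells, against 60.9 and 60.3 in KO CD29lo cells and 64.6 and 58.8 in WT CD29lo cells. Ptprc, the pan-leukocyte marker CD45, picked after its values were seen, had 1.57 and 4.21 in KO CD29hi cells and 0.37 and 1.09 in WT CD29hi cells, against 2.75 and 4.08 in KO CD29lo cells and 6.15 and 4.44 in WT CD29lo cells. Ptprc did not pass the filter and was not tested. It was at or below background on both arrays of WT CD29hi and of KO CD29lo cells. Of the 8 tested leukocyte markers, 3 had a positive difference CD29hi minus CD29lo. The part of leukocytes in these differences was not tested.

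Of 22 chemokine receptors, 20 had a probe set and 12 were tested. Only Ackr4 of the 12 was called between the gates, beside 22.9% of all genes. Between genotypes 0 of the 12 were called, beside at most 0.0685% of all genes in any genotype contrast. Ackr4, an atypical receptor that scavenges chemokines such as Ccl19, Ccl21 and Ccl25, had 10.85 and 10.61 in KO CD29hi cells and 10.76 and 10.7 in WT CD29hi cells, against 7.96 and 7.89 in KO CD29lo cells and 7.92 and 8.66 in WT CD29lo cells. The difference was 2.62 ± 0.191 (adjusted p = 7.84e-05), with no overlap. The receptors of Cxcl12, picked after their values were seen, were both well above background. Cxcr4 had 8.32 and 9.78 in KO CD29hi cells and 10.36 and 11.14 in WT CD29hi cells, against 10.28 and 10.72 in KO CD29lo cells and 10.81 and 10.55 in WT CD29lo cells. Its KO minus WT difference in CD29hi cells was -1.70 ± 0.451, with an adjusted p of 0.349. Ackr3, the second Cxcl12 receptor, had 9.89 and 10.25 in KO CD29hi cells and 8.51 and 9.99 in WT CD29hi cells, against 8.77 and 8.86 in KO CD29lo cells and 8.31 and 10.53 in WT CD29lo cells. Cxcr2, the receptor of the neutrophil attractants and likewise picked after its values were seen, was below background on every array, with a highest value of 3.1.

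Of 25 genes of NF-kB and the cytokines upstream of it, 22 were tested. Between the gates 0 were higher and 5 lower in CD29hi cells, namely Nfkbia, Nfkbiz, Bcl3, Il1r1 and Tlr4. That is 5 of 22 lower, beside 10.8% of all genes lower and 22.9% called in either direction. The list's median was -0.19, against 0.01 for all tested genes. Nfkbia, the NF-kB inhibitor that NF-kB itself induces, had 11.1 and 11.18 in KO CD29hi cells and 10.74 and 10.91 in WT CD29hi cells, against 12.17 and 12.14 in KO CD29lo cells and 11.88 and 11.99 in WT CD29lo cells. Its difference was -1.06 ± 0.0796 (adjusted p = 8.48e-05). Nfkbiz, a nuclear cofactor of NF-kB, was at -1.26 ± 0.228 (0.00561). Tlr4, the receptor of bacterial lipopolysaccharide, was at -2.24 ± 0.207 (0.000206), and Il1r1, the interleukin-1 receptor, was at -3.23 ± 0.5 (0.00265). Between genotypes 0 of the 22 were called, beside at most 0.0685% of all genes in any genotype contrast.

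Genes that respond to tissue dissociation are another list whose levels can vary with cell handling. Of 13 such genes, 0 were higher and 5 lower in CD29hi cells (Fos, Fosb, Egr1, Atf3 and Hspa1a), beside 10.8% of all genes lower and 22.9% called in either direction. Of the 13, 3 had a positive difference that did not pass. Their summed log2 signal was 135.6 and 137 in KO CD29hi cells and 132.8 and 133 in WT CD29hi cells, against 144.1 and 140.6 in KO CD29lo cells and 134.7 and 137.6 in WT CD29lo cells, so the gates overlapped. Between genotypes 0 of the 13 were called, beside at most 0.0685% of all genes in any genotype contrast. Averaged over both gates, 12 of the 13 had a positive difference KO minus WT. The median of that difference was 0.29, against -0.04 for all tested genes. The part of these genes in the chemokine differences was not tested.

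Of 6 enzymes that release or trim chemokines, 5 were tested and 1, Adam10, was lower in CD29hi cells, beside 10.8% of all genes lower. Adam10, which sheds Cxcl16 and Cx3cl1, had 10.69 and 10.86 in KO CD29hi cells and 10.73 and 11.13 in WT CD29hi cells, against 11.41 and 11.52 in KO CD29lo cells and 11.66 and 11.67 in WT CD29lo cells. The difference was -0.71 ± 0.11 (adjusted p = 0.0026). Adam17, the second sheddase, had the smallest p of the list between genotypes, at -0.67 ± 0.138 for KO minus WT averaged over both gates, and it did not pass (adjusted p = 0.198).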

How the data were processed

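RNA levels come from 8 Affymetrix mouse arrays. Per the labels' protocols, RNA was isolated with the Arcturus PicoPure kit, amplified with a NuGEN FFPE kit and labelled with biotin. The deposited table holds 1 log2 value per probe set and array, from 0 to 14.42, with the scale read from the values. How the authors summarised and scaled the arrays is not given in the sources used here, so the compression of low signals is unknown, and the number of arrays limits the precision. Genes were named from GEO's platform annotation, and 34754 of the 34958 probe sets with 1 gene matched a RefSeq gene of GRCm38.

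The brightest probe set stood for each gene, and those with a mean below 3.51, the 25th percentile over probe sets, were left untested. limma 3.58.1 in R 4.3.3 fitted the 4 groups with a variance trend (4 residual and 4.31 prior degrees of freedom) and gave 7 two-sided contrasts with Benjamini-Hochberg adjustment over 14598 genes. The fit was tested on simulated data. The background was set after values of these arrays were known. A group at or below it on both arrays was raised to it, and the fold is given as "at least".

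The chemokines and all lists were chosen with earlier results of these data known. All 10 chemokines are named, with list members that passed in any contrast (or the 2 of smallest p), and the 3 genes of most like pattern per called chemokine. Elf5, Esr1, Krt19, Ptprc, Cxcr2, Cxcr4 and Ackr3 were picked after their values were seen. The text gives a selection of the lists. Alternatives changed the normalization (quantile), the filter (none, or the 50th percentile), the probe sets (each one tested, or their mean), the variance model (no trend, array weights), the arrays in the fit (those compared, or 1 left out), dim values (raised to the background) and the blocks (replicate number fixed, gland pool random). The fibroblast covariate and leaving out both CD29lo arrays numbered 2 were added after seeing the data.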

Additional observations from a re-analysis of the deposited data

How the results depend on the processing

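The results held most often for Cxcl14 and Cxcl15, whose gate differences were called in KO, in WT and averaged in every setting tried. No chemokine was called between genotypes in any setting. The number called between the gates averaged over both genotypes was 4, and 2 to 6 when 1 array was left out, with 2 without KO CD29hi replicate 1. With the replicate number as a block it was 7, and within KO and within WT it was 5 each, against 2 each without the block. The labels mention paired sets but do not tie the numbers to them. The correlations of replicate differences between groups ran from 0.006 to 0.321, with the highest between KO CD29lo and WT CD29lo, so whether equal numbers mark 1 set is not settled here.

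Several differences changed sign under single settings, most of them small, but also the large gate differences of Ccl2 and of Cxcl5 in WT. With the mean of probe sets, KO minus WT of Cxcl12 averaged over both gates was -0.13. With the fibroblast markers as a covariate, the gate difference of Ccl2 was 0.56 in KO, 0.35 in WT and 0.46 averaged, that of Cxcl5 in WT was 0.23, and that of Cx3cl1 was -0.07. In the same fit KO minus WT of Ccl2 was 0.37 in CD29lo and 0.48 averaged, and that of Cxcl5 averaged was 0.25. The marker mean itself differs between the gates, so this fit cannot tell gate from marker level. Without both CD29lo arrays numbered 2, KO minus WT of Cxcl14 averaged was -0.03 and the gate difference of Cx3cl1 was -0.14. When 1 array was left out, KO minus WT averaged over both gates ran from -0.45 to 0.48 for Cxcl14, from -1.03 to 0.67 for Ccl2, from -0.46 to 0.51 for Cxcl2, from -1.46 to 0.69 for Cxcl5, from -0.44 to 0.95 for Cxcl12 and from -0.01 to 0.25 for Cxcl1. In CD29lo it ran from -0.81 to 0.06 for Cxcl15 and from -2.85 to 0.54 for Ccl2. The gate difference ran from -0.11 to 0.21 for Cx3cl1 and, in WT, from -0.02 to 2.76 for Cxcl12. The cause of these changes was not tested.

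Over 36 differences and 21 alternatives, 737 values were obtained. Of these 657 kept their direction and side of the threshold, 36 gained a call, 9 lost one and 35 changed sign. Of the gate calls that were gained, Cxcl1 passed with quantile normalization (adjusted p = 0.0323), the 50th percentile filter (0.0439), gland pools as random effects (0.0494) and the mean of probe sets (0.0326). Gains were not limited to Cxcl1. In some fits that left out 1 array, Cxcl2, Cxcl5, Cxcl12 and Ccl2 also gained a gate call, within 1 genotype or averaged.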
